A study of Mus musculus with 12 samples.

Results

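Expression of 37 genes of fatty acid oxidation and its regulation by PPAR alpha was followed in mouse liver during the first hours after partial hepatectomy. The genes were taken by symbol from a list that covers the receptor and a coregulating factor, fatty acid uptake and activation, the carnitine shuttle, mitochondrial and peroxisomal oxidation, microsomal omega-hydroxylation, the acyl-CoA thioesterases and a few further PPAR alpha targets. All 37 symbols were found among the 54532 genes of the table. The list was set by gene function, not by a threshold on expression values, but with earlier results of these data known. Poly(A) RNA from whole liver was sequenced in 12 libraries, 3 in each of 4 groups. The sham group was operated on without resection, and the other groups were taken 3, 6 and 12 h after 70% of the liver had been removed. Wild-type C57/BL6J mice were used throughout, so the groups share strain and genotype and differ in operation and time. The labels give neither the hour of the sham livers nor age, sex, feeding state or clock time. In 1 library, 6 h replicate 3, the title says 6 h and the time label 7 h, and the title was followed.

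PPAR alpha is a nuclear receptor that binds fatty acids and, with its partner RXR, turns on genes that let the liver burn fat when glucose is short. Long-chain fatty acids are joined to coenzyme A, carried into mitochondria by the carnitine shuttle and shortened there by a repeating cycle of dehydrogenation, hydration, oxidation and thiolysis. Peroxisomes and the Cyp4a enzymes of the endoplasmic reticulum take part of the load, and the resected liver is known to fill for a time with fat released from adipose tissue.

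PPAR alpha and RXR bind 2 copies of AGGTCA separated by 1 base, a so-called direct repeat 1. The RefSeq promoter table (GRCm38.p6) held 34 windows for 30 of the 37 genes, each with 250 bases before the transcription start and 50 after it. The strict form AGGTCANAGGTCA, read on both strands, was in 0 of the 34 windows and in 13 of 32851 windows of all genes. The relaxed form AGGNCANAGGNCA, which covers the strict one, was in 125 of the 32851 windows (0.381%) and in 1 of the 34, that of Fabp1. Fabp1 encodes the liver fatty acid binding protein, and the 250 bases before its start (chr6:71199629-71199878, plus strand) are shown because they hold that match. Capitals mark the match, which lies on the minus strand, 67 to 55 bases before the start.
Fabp1: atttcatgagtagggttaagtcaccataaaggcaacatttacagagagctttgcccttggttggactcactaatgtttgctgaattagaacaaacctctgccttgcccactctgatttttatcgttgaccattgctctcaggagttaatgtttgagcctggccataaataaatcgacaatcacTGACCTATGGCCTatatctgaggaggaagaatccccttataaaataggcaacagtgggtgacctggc
The half-site AGGTCA, on either strand in the 250 bases before the start, was in 8 of the 34 windows (23.5%) and in 14.0% of all windows. The 8 genes were Acadm, Acadvl, Acot4, Cd36, Cpt1a, Creb3l3, Fabp1 and Slc27a2.

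Acot1 and Acot4 are shown next because these neighbours on chromosome 12 rose at different times after resection, Acot1 at 3 h and Acot4 at 12 h. Both sequences are the plus strand, and capitals mark a half-site, here TGACCT, 13 to 8 bases before the Acot4 start. The Acot1 window (chr12:84009252-84009501) held no half-site, and the Acot4 window is chr12:84038129-84038378.
Acot1: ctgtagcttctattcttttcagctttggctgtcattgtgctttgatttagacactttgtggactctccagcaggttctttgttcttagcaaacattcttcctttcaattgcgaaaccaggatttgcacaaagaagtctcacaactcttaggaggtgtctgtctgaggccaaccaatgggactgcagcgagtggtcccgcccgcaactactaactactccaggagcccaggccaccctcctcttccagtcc
Acot4: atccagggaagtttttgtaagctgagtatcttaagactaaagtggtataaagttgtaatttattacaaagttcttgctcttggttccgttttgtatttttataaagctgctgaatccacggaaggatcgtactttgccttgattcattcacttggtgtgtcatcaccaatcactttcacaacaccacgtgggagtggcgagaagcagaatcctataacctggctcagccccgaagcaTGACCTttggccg
A match of letters describes these windows only, since binding was not measured.

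Library totals lay between 15573405 and 17199639 counts. A gene was tested where it reached 1 FPKM (a level scaled to gene length and library size) in 3 or more of the 12 libraries, which left 11451 genes, all 37 among them. Acot3 passed through 3 libraries alone, 6 h replicate 1 and 12 h replicates 1 and 3. Sham replicate 1 stood apart, with 11.9% of its counts on mitochondrially encoded genes against 6.26% and 5.52% in sham replicates 2 and 3. This share was also raised in 6 h replicate 3, at 8.49% against 6.26% and 6.91% in 6 h replicates 1 and 2. It was 5.94% to 6.37% in the 3 h libraries and 7.68% to 8.31% in the 12 h libraries. No label states that each library is a different animal, so p-values measure only the spread between these samples, which may be technical. The summed level of 9 hepatocyte markers had a range of 41100 to 45000 FPKM in sham; at 3 h the range was 50740 to 58350, at 6 h 51750 to 60100 and at 12 h 36350 to 38990. On the deposited FPKM the sums thus lay above sham at 3 and 6 h and below it at 12 h without overlap. These FPKM carry the authors' scaling. The library size behind them was 1.06 to 1.15 times the library total in sham and 0.922 to 1.0 times at 3 h. At 6 h it was 0.854 to 0.912 times and at 12 h 1.07 to 1.12 times the total. Whether the sums lie apart without this scaling was not tested. Of the 9 markers 2 rose and 0 fell at 3 h and at 6 h, and 2 rose and 3 fell at 12 h. As shares 22.2% rose at each time, and 0%, 0% and 33.3% fell. Of all tested genes 9.81%, 16.8% and 13.5% rose and 11.7%, 18.2% and 15.3% fell. The part of the hepatocyte markers in the results was not tested. The summed level of 10 neutrophil markers was 1.83 to 2.45 FPKM in sham and 13.4 to 14.5, 9.35 to 19.5 and 6.61 to 8.69 FPKM at the 3 times, with Mpo at 0 in every group. In whole liver, fewer cells of a type and less RNA per cell cannot be told apart.

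At 3 h, 6 of the 37 genes rose and 0 fell, at 6 h, 12 rose and 5 fell, and at 12 h, 9 rose and 3 fell (edgeR quasi-likelihood test, adjusted p under 0.05). As shares these are 16.2%, 32.4% and 24.3% higher and 0%, 13.5% and 8.11% lower. Of all tested genes, 9.81% rose and 11.7% fell at 3 h, 16.8% rose and 18.2% fell at 6 h, and 13.5% rose and 15.3% fell at 12 h. The share of the 37 that rose was thus above the share of all genes at each time, and the share that fell was below it. Since the 37 were chosen with earlier results of these data known, these shares are descriptions and no independent support. The 12 h count of 9 includes Acot3, which passed the filter only through libraries where it is high and so had to differ, and 8 of the other 36 rose. The counts also rest on single libraries: at 3 h 1 gene was higher without 3 h replicate 2 or 3 and 2 without sham replicate 2. At 6 h 7 were higher without 6 h replicate 1 or 2, and 3 were lower without sham replicate 2 or 6 h replicate 3. At 12 h 4 were higher without 12 h replicate 1 and 8 lower without sham replicate 1. The median log2 difference of the 37 was 0.26, 0.39 and 0.21 at the 3 times, beside -0.02, -0.01 and -0.02 over all tested genes. Scaled by library totals, all differences from sham moved by a median of -0.18 at 3 h and -0.31 at 6 h. After that 3 of the 37 genes were higher and 0 lower at 3 h and 6 higher and 6 lower at 6 h. The median of the 37 was then 0.08 at both times, beside -0.20 and -0.32 over all tested genes. Shares of all tested genes called under this scaling or without single libraries are not given. All 3 libraries lay above all 3 sham libraries for 9 genes at 3 h (24.3%, 18.9% of all tested genes), 14 at 6 h (37.8%, 23.1%) and 13 at 12 h (35.1%, 19.7%). The 3 comparisons share the sham libraries. Cyp4a10 and Cyp4a31 were higher at all 3 times, and no gene was lower at all 3.

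**Figure D1:**
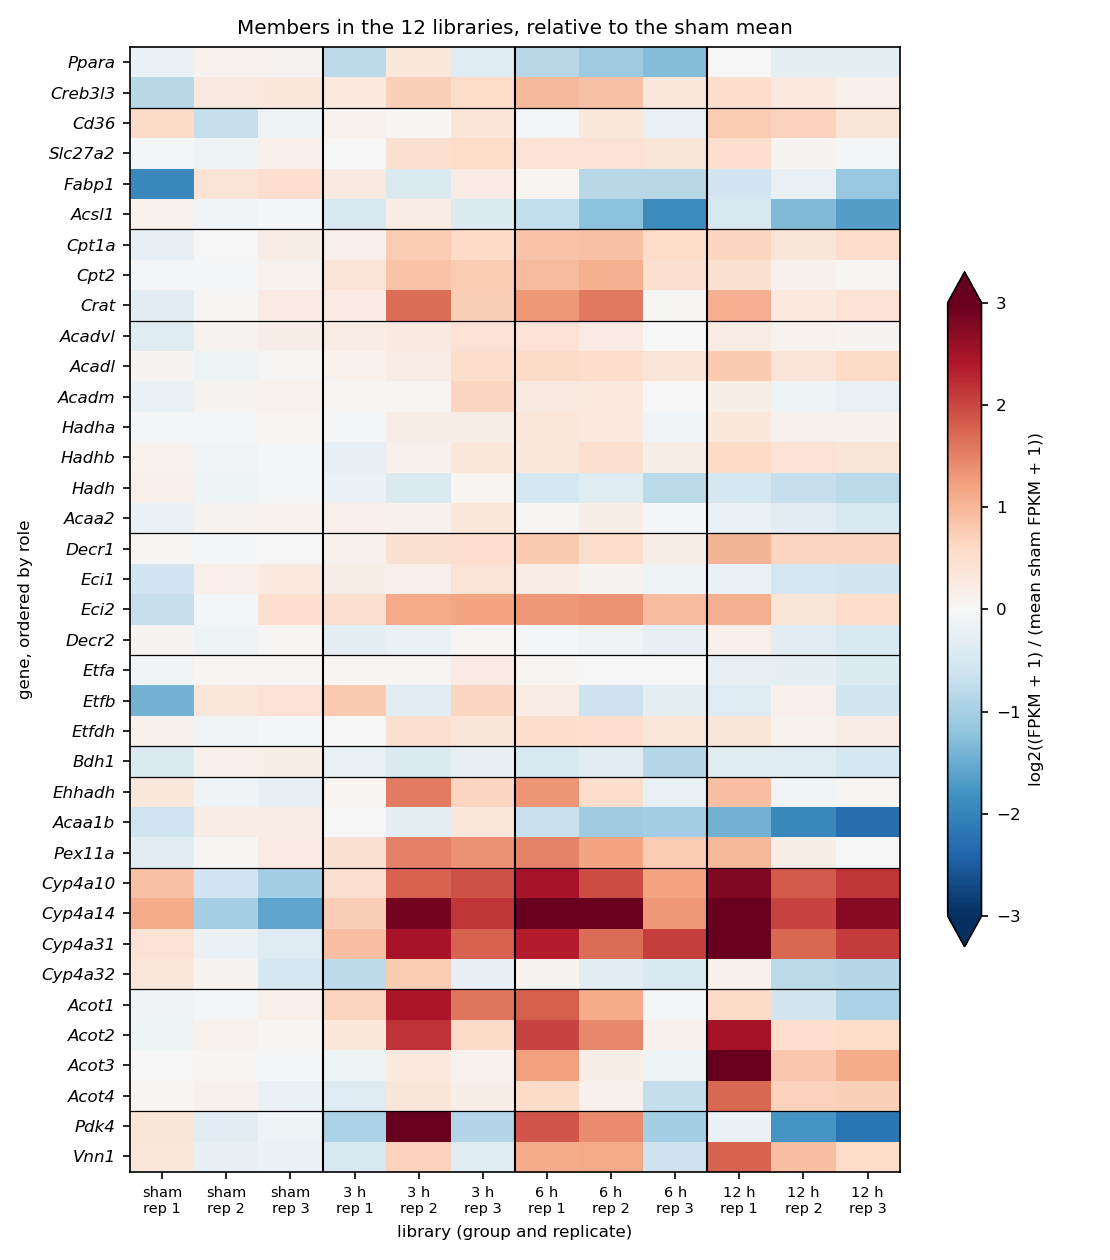
Level of each of the 37 genes (rows, grouped by role) in each of the 12 libraries (columns, grouped by time), as the log2 ratio to that gene's sham mean, with 1 FPKM added to both. The Cyp4a10, Cyp4a14 and Cyp4a31 rows are high after resection, the Acsl1 row is low at 6 and 12 h and the Acaa1b row is lowest at 12 h.

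The receptor itself went down for a time. Ppara, which encodes PPAR alpha, was at 17.5, 21.9 and 21.3 FPKM in the sham libraries, at 11.4, 25.3 and 15.3 at 3 h, at 10.95, 9.10 and 7.56 at 6 h and at 20.5, 16.3 and 16.6 at 12 h. All 6 h libraries lay below every library of the other 3 groups. Against sham the 6 h level fell by 1.16 ± 0.25 SE on the log2 scale (edgeR adjusted p = 0.00253), and this held in each fit that left out 1 library. It rose again by 0.97 from 6 h to 12 h (edgeR adjusted p = 0.0118, 0.85 and not called without 6 h replicate 3). The step from 3 h to 6 h was -0.90 (edgeR adjusted p = 0.0406) but the call was lost in 9 of 12 fits that left out 1 library. These were the fits without sham replicate 2, 3 h replicate 2 or 3, any 6 h replicate or any 12 h replicate, and the value ranged from -0.51 without 3 h replicate 2 to -1.04 without 6 h replicate 1 among them. At 3 h and 12 h Ppara was not called against sham (-0.26 and -0.19), but without 3 h replicate 2 the 3 h level was called lower (-0.65).

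Creb3l3 encodes CREBH, a membrane-bound liver transcription factor that acts with PPAR alpha in fasting. It was at 46.1, 99.1 and 103 FPKM in sham libraries, at 101, 137 and 121 at 3 h, at 163, 153 and 104 at 6 h and at 119.7, 101 and 91.7 at 12 h. The 6 h libraries lay above all sham libraries, with 6 h replicate 3 just above the highest of them. The 6 h rise was 0.73 ± 0.27 (edgeR adjusted p = 0.0484) and was lost in 8 of 12 fits without 1 library. It was 0.44 without sham replicate 1, 0.61 without 6 h replicate 1, 0.66 without 6 h replicate 2 and still 0.73 without 3 h replicate 2 or 3 or any 12 h replicate. At 6 h the transcripts of the receptor and of CREBH thus lay on opposite sides of sham.

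Of 4 genes of uptake, binding and activation, 1 fell at 6 h and at 12 h and none rose. Of all tested genes 18.2% and 15.3% fell at these times. Acsl1, the main long-chain acyl-CoA synthetase of liver, was at 85.8, 75.9 and 78.8 FPKM in sham, at 58.1, 93.9 and 59.7 at 3 h, at 47.9, 33.8 and 20.4 at 6 h and at 57.4, 31.4 and 25.0 at 12 h. Every 6 h and 12 h library lay below every sham library, while the 3 h libraries straddled them. Acsl1 fell by 1.26 ± 0.33 at 6 h (edgeR adjusted p = 0.00897) and by 1.09 ± 0.33 at 12 h (edgeR adjusted p = 0.0244). The 12 h call was lost without 12 h replicate 2 (-0.97) or 12 h replicate 3 (-0.86).

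Fabp1, which carries fatty acids in the hepatocyte cytosol, was the most abundant of the 37 and was not called at any time. Its levels were 939.7, 4735 and 5078 FPKM in sham, 4319, 2661 and 4257 at 3 h, 3757, 2023 and 2028 at 6 h and 2418, 3092 and 1623 at 12 h. Sham replicate 1 was the lowest of the 12 libraries and the other sham libraries were the highest, so the groups overlapped. The fitted differences from sham were 0.02, -0.49 and -0.60 at 3, 6 and 12 h (edgeR adjusted p = 0.982, 0.458 and 0.371). Without sham replicate 1 they were -0.44, -0.95 and -1.06, with those at 6 h and 12 h called lower (edgeR adjusted p = 0.021 and 0.0119) and that at 3 h not (edgeR adjusted p = 0.344). Fabp1 has a deposited length of 553 bases. In sham replicate 1 genes under 1000 bases lay at a median of -0.18 from their mean over libraries on log2(FPKM + 1), against 0.10 and 0.06 in sham replicates 2 and 3, and at -0.10, -0.04 and -0.22 in the 12 h libraries. Genes with a GC content of 52% or more lay at -0.25, 0.16 and 0.18 in the sham libraries and at -0.14, -0.10 and -0.19 in those of 12 h. Genes under 45% lay at 0.26, -0.19 and -0.22 in sham and at 0.11, 0.09 and 0.21 at 12 h. The GC content of the 3 genes called lower at 12 h is 58.5% for Acaa1b, 51.4% for Acsl1 and 50.8% for Hadh. Of the 9 called higher, Hadhb has 44.4%, Acadl 45.3%, Cyp4a14 45.35%, Decr1 47.3% and Cyp4a10 47.5%. The others are Cyp4a31 with 48.0%, Acot4 with 50.9%, Acot3 with 53.2% and Cpt1a with 53.5%. Genes of 45% to under 52% lay at 0.04, -0.05 and -0.07 in sham and at 0.01, 0.01 and 0.04 at 12 h. The part of length and GC content in these results was not tested.

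The fatty acid transporters did not pass the test at any time. Slc27a2 (FATP2), which imports and activates long-chain fatty acids, was at 258 to 313 FPKM in the sham libraries; at 3 h its range was 278 to 410.2, at 6 h 363 to 383 and at 12 h 273 to 399. Cd36, a fatty acid translocase, was at 2.79 to 8.10 FPKM in sham and at 6.94 to 9.45 at 12 h, where its difference was 0.71 (edgeR adjusted p = 0.0925, and 1.19 and called without sham replicate 1). Both genes overlapped sham at all times but for Slc27a2 at 6 h.

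All 3 genes of the carnitine shuttle were called higher at 6 h, where 16.8% of all tested genes rose. The Crat libraries overlapped sham, and its call was lost in 8 of 12 fits without 1 library. Cpt1a, the outer-membrane carnitine palmitoyltransferase and rate-limiting step of entry, was at 58.2, 70.2 and 80.3 FPKM in sham, at 77.9, 118 and 106 at 3 h, at 127, 128 and 102 at 6 h and at 110.2, 90.3 and 101 at 12 h. All 6 h and 12 h libraries lay above sham, and 3 h replicate 1 lay within the sham range. Cpt1a rose by 0.74 ± 0.18 at 6 h (edgeR adjusted p = 0.00526) and by 0.52 ± 0.18 at 12 h (edgeR adjusted p = 0.0427). The 6 h rise held without any 1 library but was 0.43 and not called when scaled by library totals. The 12 h call was lost in 8 of 12 fits. It was 0.40 without sham replicate 1, 0.44 without 12 h replicate 1, 0.59 without 12 h replicate 2 and 0.52 without sham replicate 2, 3 h replicate 3, 6 h replicate 1 or 2 or 12 h replicate 3. At 3 h the difference was 0.49 ± 0.18 (edgeR adjusted p = 0.0653), and it was called without sham replicate 3 (0.61) or 3 h replicate 1 (0.66).

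Cpt2, the inner-membrane enzyme that hands the acyl group back to coenzyme A, passed the test at 3 h and at 6 h. Its levels were 51.7, 51.4 and 58.5 FPKM in sham, 70.8, 98.9 and 91.7 at 3 h, 105, 115 and 76.1 at 6 h and 74.6, 59.1 and 55.3 at 12 h. The 3 h and 6 h libraries were all above sham, and the 12 h libraries overlapped it. Cpt2 rose by 0.65 ± 0.18 at 3 h (edgeR adjusted p = 0.0213) and 0.84 ± 0.18 at 6 h (edgeR adjusted p = 0.00285), then fell by 0.63 from 6 h to 12 h (edgeR adjusted p = 0.0231). The 3 h call was lost without sham replicate 2 (0.62), 3 h replicate 2 (0.54) or 3 h replicate 3 (0.63), and the later fall without 6 h replicate 1 (-0.58), 6 h replicate 2 (-0.51), 12 h replicate 2 (-0.59) or 12 h replicate 3 (-0.54).

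Crat, carnitine acetyltransferase, was at 2.92, 4.06 and 4.87 FPKM in sham, at 4.85, 14.9 and 7.20 at 3 h, at 11.2, 13.7 and 4.07 at 6 h and at 9.48, 5.03 and 5.63 at 12 h. At 6 h replicates 1 and 2 were above every sham library and replicate 3 lay within them. The 6 h rise of 1.26 ± 0.45 (edgeR adjusted p = 0.0433) was lost in 8 of 12 fits. It was 0.92 without 6 h replicate 2, 1.14 without 6 h replicate 1 and 1.08, 1.28 and 1.45 without sham replicates 1, 2 and 3, and stayed at 1.26 without 3 h replicate 3 or 12 h replicate 2 or 3. The 3 h difference of 1.14 was not called, except without 3 h replicate 1 (1.47) or 6 h replicate 3 (1.14).

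**Figure D2:**
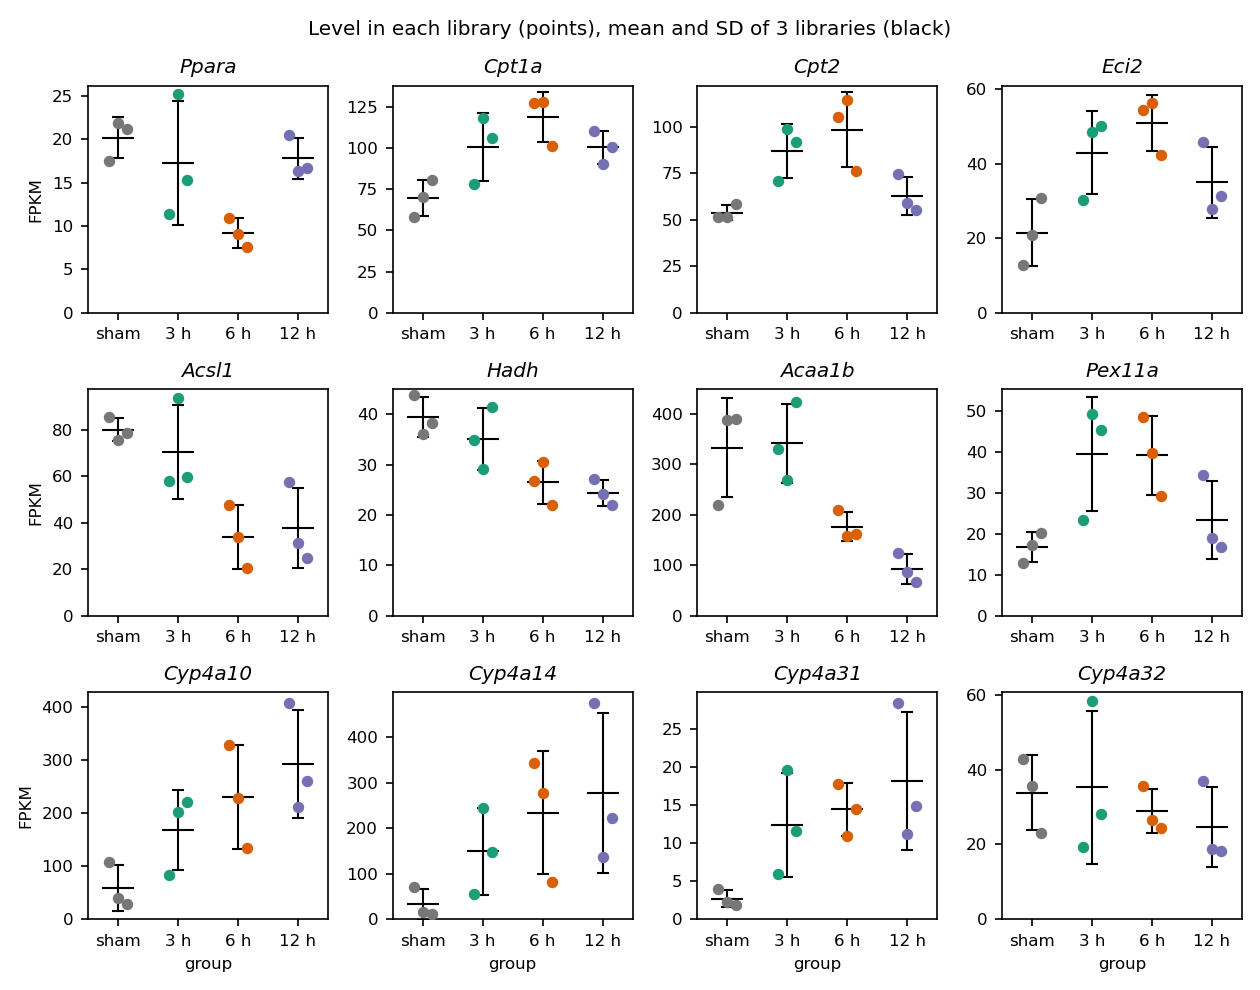
Level in FPKM of selected genes of the 37 in each library, by group, with the mean and SD of the 3 libraries in black. Ppara dips at 6 h, Acaa1b declines through 12 h, and Cyp4a14 lies above sham in all 6 h and 12 h libraries.

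Within the mitochondrial cycle most enzymes stayed uncalled, and those that changed did not go the same way. Of 7 genes, 0 were called at 3 h, 1 rose and 1 fell at 6 h, and 2 rose and 1 fell at 12 h. Of all tested genes 9.81%, 16.8% and 13.5% rose and 11.7%, 18.2% and 15.3% fell. Acadl, the long-chain acyl-CoA dehydrogenase of the first step, was at 76.3, 65.3 and 72.9 FPKM in sham, at 76.9, 83.0 and 104 at 3 h, at 106, 103 and 93.1 at 6 h and at 124, 93.2 and 106 at 12 h. Its libraries after resection were all above sham. Acadl rose by 0.47 ± 0.15 at 6 h (edgeR adjusted p = 0.0243) and by 0.58 ± 0.15 at 12 h (edgeR adjusted p = 0.0105). The 6 h call was lost without sham replicate 2 (0.41), 6 h replicate 1 (0.43) or 6 h replicate 2 (0.45) and under library totals (0.16), and the 12 h call without 12 h replicate 1 (0.46).

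Hadh, the 3-hydroxyacyl-CoA dehydrogenase for shorter chains, moved down. It was at 43.9, 36.1 and 38.3 FPKM in sham, at 34.8, 29.1 and 41.4 at 3 h, at 26.8, 30.6 and 22.1 at 6 h and at 27.1, 24.2 and 22.0 at 12 h. All 6 h and 12 h libraries lay below all sham libraries. Hadh fell by 0.60 ± 0.16 at 6 h (edgeR adjusted p = 0.0114, -0.49 and not called without 6 h replicate 3) and by 0.70 ± 0.16 at 12 h (edgeR adjusted p = 0.00658).

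Hadha and Hadhb encode the subunits of the trifunctional protein, which carries out the last 3 steps on long chains. They are divergent neighbours on chromosome 5. The 85 bases between their deposited gene bounds (chr5:30155163-30155247, plus strand) are shown since the genes are read away from them in opposite directions. Unlike the windows above, this stretch does not use RefSeq starts. The RefSeq start of Hadha lies outside it, within the deposited Hadha gene.
Hadha-Hadhb: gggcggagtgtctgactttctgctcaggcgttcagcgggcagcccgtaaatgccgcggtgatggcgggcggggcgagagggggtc
Hadhb was at 20.4, 17.8 and 18.5 FPKM in sham, at 15.8, 20.6 and 23.8 at 3 h, at 23.9, 26.7 and 21.5 at 6 h and at 28.9, 25.7 and 24.6 at 12 h. Its 6 h and 12 h libraries were above sham, and it rose by 0.47 ± 0.15 at 12 h (edgeR adjusted p = 0.0339). It was no longer called without sham replicate 2 (0.43), sham replicate 3 (0.46) or any 12 h replicate (0.40, 0.49 and 0.53). Hadha was at 32.0 to 34.6 FPKM in sham and 35.8 to 40.9 at 12 h, and its difference of 0.18 was not called (edgeR adjusted p = 0.365). Of the 60-base stretches in Hadhb transcripts 17.5% also occur in those of Gm13910, so part of its reads may be split between them.

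The other 3 enzymes of the cycle were not called against sham. Acadvl, which starts on the longest chains, ranged from 40.0 to 70.0 FPKM over the 12 libraries and Acadm, for medium chains, from 45.8 to 83.6. Acaa2, the mitochondrial thiolase, was at 404 to 504 FPKM in sham and 341 to 407 at 12 h, a difference of -0.34 (edgeR adjusted p = 0.0837, and -0.43 and called without sham replicate 1). Its 3 h libraries, at 511 to 581 FPKM, were all above its 12 h libraries.

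Unsaturated fatty acids need auxiliary enzymes, and 2 of the 4 listed here rose at 6 h, where 16.8% of all tested genes rose. Decr1, the mitochondrial 2,4-dienoyl-CoA reductase, was at 35.3, 33.5 and 33.7 FPKM in sham, at 37.6, 47.6 and 48.7 at 3 h, at 59.5, 49.6 and 38.5 at 6 h and at 70.5, 54.1 and 54.3 at 12 h. Every library after resection was above every sham library. Decr1 rose by 0.50 ± 0.17 at 6 h (edgeR adjusted p = 0.0383) and by 0.79 ± 0.17 at 12 h (edgeR adjusted p = 0.00431). The 12 h rise held without any 1 library, while the 6 h one was lost without sham replicate 2 (0.49), sham replicate 3 (0.49), 6 h replicate 1 (0.34) or 6 h replicate 2 (0.49), and under library totals (0.19).

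Eci2, an enoyl-CoA isomerase of peroxisomes and mitochondria, was at 12.8, 20.8 and 30.7 FPKM in sham, at 30.2, 48.5 and 50.2 at 3 h, at 54.4, 56.3 and 42.3 at 6 h and at 45.9, 27.9 and 31.4 at 12 h. Its 6 h libraries were all above sham, and 3 h replicate 1 was just below the highest sham library. Eci2 rose by 0.96 ± 0.29 at 3 h (edgeR adjusted p = 0.0335) and 1.22 ± 0.30 at 6 h (edgeR adjusted p = 0.00585), and at 12 h was 0.70 (edgeR adjusted p = 0.0921, and 1.05 and called without sham replicate 3). The 3 h call was lost without sham replicate 1 (0.69), sham replicate 2 (0.93), 3 h replicate 2 (0.85) or 3 h replicate 3 (0.84). Eci1, the mitochondrial isomerase, and Decr2, the peroxisomal reductase, were not called against sham, with levels of 52.1 to 105 and 63.2 to 97.7 FPKM over the 12 libraries, but without sham replicate 1 Eci1 was called lower at 12 h (-0.65, against -0.43 with it).

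The electron transfer flavoprotein and its dehydrogenase pass electrons from the first step to the respiratory chain. Etfdh, the dehydrogenase, was at 30.4, 26.0 and 26.8 FPKM in sham and at 40.5, 39.8 and 35.6 at 6 h, with no overlap. It rose by 0.45 ± 0.15 at 6 h (edgeR adjusted p = 0.0277), a call lost without sham replicate 2 (0.41), sham replicate 3 (0.43), 6 h replicate 1 (0.42) or 6 h replicate 2 (0.43) and under library totals (0.14). Etfa, the large subunit, was at 131 to 145 FPKM in sham and at 106 to 117 at 12 h, and its difference of -0.32 was not called (edgeR adjusted p = 0.0541), though it was called without sham replicate 1 (-0.37). Etfb, the small subunit, was at 5.01, 19.4 and 20.8 FPKM in sham and at 9.37 to 26.5 after resection and was not called. Its low sham library is again replicate 1, and 42.1% of its 60-base stretches are shared with the overlapping gene Gm45233, so its reads are uncertain.

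Bdh1, which interconverts the ketone bodies acetoacetate and beta-hydroxybutyrate, was at 34.8, 52.3 and 54.8 FPKM in sham, at 40.5, 35.1 and 39.7 at 3 h, at 33.5, 37.8 and 25.7 at 6 h and at 36.4, 36.4 and 32.7 at 12 h. The low sham library was replicate 1, which overlapped the 6 h libraries. Bdh1 fell by 0.58 ± 0.18 at 6 h (edgeR adjusted p = 0.0262), a call lost without sham replicate 2 (-0.50), sham replicate 3 (-0.46), 6 h replicate 1 (-0.60) or 6 h replicate 3 (-0.44). Without sham replicate 1 it was also called at 3 h (-0.52) and at 12 h (-0.62), where the differences with all libraries were -0.34 and -0.44.

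The peroxisomal genes parted ways. Acaa1b, a peroxisomal thiolase, was at 219.6, 388 and 390.5 FPKM in sham, at 331, 269.8 and 424.5 at 3 h, at 210.4, 159 and 162 at 6 h and at 124, 86.2 and 68.0 at 12 h. Its 6 h libraries were below sham and 3 h libraries, and its 12 h libraries were below all others. Acaa1b fell by 0.94 ± 0.26 at 6 h (edgeR adjusted p = 0.0131) and by 1.85 ± 0.27 at 12 h (edgeR adjusted p = 0.000306), so at 12 h it was 3.61-fold lower than in sham. The 12 h fall held in each fit without 1 library, and the 6 h fall was lost without sham replicate 2 (-0.82) or 6 h replicate 2 (-0.87). Of its 60-base stretches 27.3% also occur in Acaa1a, which was at 24.4 to 49.0 FPKM in sham and 29.9 to 43.0 at 12 h and was not called (-0.18, edgeR adjusted p = 0.651).

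Pex11a, which promotes peroxisome division, rose early. Its levels were 12.9, 17.2 and 20.2 FPKM in sham, 23.5, 49.3 and 45.3 at 3 h, 48.5, 39.7 and 29.3 at 6 h and 34.2, 19.1 and 16.7 at 12 h. The 3 h and 6 h libraries were all above sham, and the 12 h libraries overlapped it. The rise was 1.19 ± 0.32 at 3 h (edgeR adjusted p = 0.0165) and 1.19 ± 0.32 at 6 h (edgeR adjusted p = 0.00982), and the 3 h call was lost without 3 h replicate 2 (0.98) or 3 h replicate 3 (1.09). Ehhadh, the peroxisomal bifunctional enzyme, was at 105, 78.3 and 70.6 FPKM in sham, at 88.3, 247 and 133 at 3 h, at 212, 122 and 72.5 at 6 h and at 158, 79.4 and 87.2 at 12 h. Its libraries differed within each group and overlapped sham at each time, and it was not called (0.84, 0.65 and 0.35). Without 3 h replicate 2 the 3 h value was 0.34, and without 6 h replicate 1 the 6 h value was 0.17.

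The Cyp4a genes encode the enzymes that oxidise the far end of fatty acids in the endoplasmic reticulum, and 3 of 4 rose at 6 h and at 12 h. Of all tested genes 16.8% and 13.5% rose at these times. The 4 genes lie together on chromosome 4 between 115486200 and 115621602. Cyp4a14 was at 71.7, 15.7 and 10.2 FPKM in sham, at 54.6, 245 and 148 at 3 h, at 343, 278 and 81.6 at 6 h and at 475, 136 and 222 at 12 h. All 6 h and 12 h libraries were above all sham libraries, with sham replicate 1 the highest of its group and 6 h replicate 3 the lowest of its own. Cyp4a14 rose by 2.83 ± 0.78 at 6 h (edgeR adjusted p = 0.0123) and by 3.09 ± 0.79 at 12 h (edgeR adjusted p = 0.0106), or 7.09-fold and 8.52-fold. Without sham replicate 1 these were 4.14 and 4.41, and without 12 h replicate 1 the 12 h rise was 2.45, called in each case. At 3 h the difference was 2.16 and was not called (edgeR adjusted p = 0.0592). It was 3.48 and called without sham replicate 1, 2.57 and called without 3 h replicate 1, 2.16 and called without 6 h replicate 3, and 1.59 and not called without 3 h replicate 2.

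Cyp4a10 was at 108, 39.1 and 28.2 FPKM in sham, at 82.3, 202 and 221 at 3 h, at 329, 228 and 133 at 6 h and at 408, 212 and 259.7 at 12 h. Sham replicate 1 again was highest of its group and lay above 3 h replicate 1, while the 6 h and 12 h libraries were all above sham. The rise was 1.49 ± 0.49 at 3 h (edgeR adjusted p = 0.047), 1.96 ± 0.50 at 6 h (edgeR adjusted p = 0.00807) and 2.32 ± 0.51 at 12 h (edgeR adjusted p = 0.00434). Without sham replicate 1 the rises were 2.27, 2.74 and 3.11, all called. The 3 h call was lost in 8 of 12 fits, those without sham replicate 2 (1.27), sham replicate 3 (1.16), 3 h replicate 2 (1.33), 3 h replicate 3 (1.26), 6 h replicate 2 or any 12 h replicate (1.49 each).

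Cyp4a31, the least abundant of the 4 in sham, was at 3.99, 2.25 and 1.84 FPKM there, at 5.90, 19.5 and 11.5 at 3 h, at 17.8, 10.9 and 14.5 at 6 h and at 28.4, 11.1 and 14.8 at 12 h. No library after resection overlapped sham. It rose by 2.16 ± 0.45 at 3 h (edgeR adjusted p = 0.00388), 2.39 ± 0.45 at 6 h (edgeR adjusted p = 0.00107) and 2.75 ± 0.45 at 12 h (edgeR adjusted p = 0.000707), and each call held without any 1 library. Cyp4a32 did not pass the test at any time. Its levels were 42.8, 35.8 and 23.0 FPKM in sham and 36.9, 18.9 and 18.2 at 12 h, and the differences of 0.02, -0.25 and -0.46 were not called. Of the 60-base stretches in Cyp4a32 transcripts 36.4% occur in other genes, mostly Cyp4a10 (26.3%) and Cyp4a31 (19.7%), so reads of these 3 genes may be split between them, whereas Cyp4a14 shares none of that length.

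The type I acyl-CoA thioesterases, which release free fatty acids from coenzyme A, lie side by side on chromosome 12 between 83987861 and 84060402. They were not all called at the same times. Within the resected groups, though, all 4 thioesterases were highest in 3 h replicate 2, 6 h replicate 1 and 12 h replicate 1. All were lowest in 3 h replicate 1 and 6 h replicate 3. Acot1, the cytosolic one, was at 3.54, 3.70 and 4.39 FPKM in sham, at 6.80, 25.5 and 13.9 at 3 h, at 16.0, 9.47 and 3.74 at 6 h and at 6.31, 2.31 and 1.53 at 12 h. Its 3 h libraries were above all sham and all 12 h libraries, and those of 6 h overlapped sham. Acot1 rose by 1.95 ± 0.58 at 3 h (edgeR adjusted p = 0.0279) and was 2.15 lower at 12 h than at 3 h. The 3 h call was lost without sham replicate 1 (1.88), sham replicate 2 (1.91), sham replicate 3 (2.05), 3 h replicate 2 (1.36) or 3 h replicate 3 (2.02). At 6 h the difference of 1.30 was not called, except without 6 h replicate 3 (1.68).

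Acot4, a peroxisomal thioesterase, was at 3.45, 3.64 and 2.70 FPKM in sham, at 2.25, 4.48 and 3.92 at 3 h, at 5.34, 3.66 and 1.59 at 6 h and at 13.1, 5.93 and 6.02 at 12 h. The 12 h libraries were above all others, and replicate 1 was far above the rest. Acot4 rose by 1.35 ± 0.40 at 12 h (edgeR adjusted p = 0.0226), which was 0.86 and not called without 12 h replicate 1 and 1.23 and not called without sham replicate 3.

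Acot3, also peroxisomal, rested on few reads, with 6, 9 and 6 counts in sham, 0, 19 and 10 at 3 h, 79, 15 and 0 at 6 h and 767, 59 and 87 at 12 h. The 12 h libraries were above all sham and 3 h libraries, and replicate 1 held most of the counts. The fitted difference at 12 h was 5.40 ± 1.31, and 3.36 without 12 h replicate 1. It is given as a description, since the libraries where the gene is high are those that brought it past the filter. Acot2, the mitochondrial one, was at 0.831 to 1.15 FPKM in sham, and its ranges after resection were 1.52 to 8.07, 1.21 to 7.13 and 1.87 to 10.3 FPKM at 3, 6 and 12 h. All its libraries after resection were above sham, but the differences of 1.89, 2.05 and 2.21 were not called (edgeR adjusted p = 0.118, 0.0663 and 0.0553). Without 3 h replicate 2 the 3 h value was 0.75, without 6 h replicate 1 the 6 h value was 1.46, and without 12 h replicate 1 the 12 h value was 0.91, none called. The 6 h difference was called without 3 h replicate 2 or 12 h replicate 1 (2.05 each) or 6 h replicate 3 (2.48). The 12 h difference was called without 3 h replicate 2 or 6 h replicate 3 (2.21 each), 12 h replicate 2 (2.59) or 12 h replicate 3 (2.58). Reads may be split within this family, since 22.8% of the 60-base stretches of Acot2 occur in Acot1.

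Pdk4 and Vnn1, which complete the list, varied widely between the libraries of a group. Pdk4 encodes the kinase that shuts pyruvate dehydrogenase and so spares glucose, and it was at 7.94, 4.44 and 5.33 FPKM in sham, at 2.60, 72.3 and 2.76 at 3 h, at 24.4, 17.3 and 2.43 at 6 h and at 5.08, 1.03 and 0.510 at 12 h. One 3 h library was far above the other 2, and one 6 h library was far below. Pdk4 was not called against sham (2.10, 1.29 and -1.42, with edgeR adjusted p = 0.223, 0.409 and 0.396). Without 3 h replicate 2 the 3 h value turned to -1.18, without 6 h replicate 1 the 6 h value was 0.72 and without 12 h replicate 1 the 12 h value was -2.94, none called. Vnn1, a pantetheinase, was at 15.4, 9.92 and 10.5 FPKM in sham, at 8.22, 19.9 and 9.02 at 3 h, at 27.0, 27.3 and 7.41 at 6 h and at 43.5, 23.1 and 18.0 at 12 h. Its 12 h libraries were all above sham, with a difference of 1.23 that was not called (edgeR adjusted p = 0.0663). It was called without sham replicate 1 (1.45), 3 h replicate 2 or 6 h replicate 3 (1.23 each) and was 0.77 without 12 h replicate 1. The 6 h difference of 0.76 was called without 6 h replicate 3 (1.16).

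**Figure D3:**
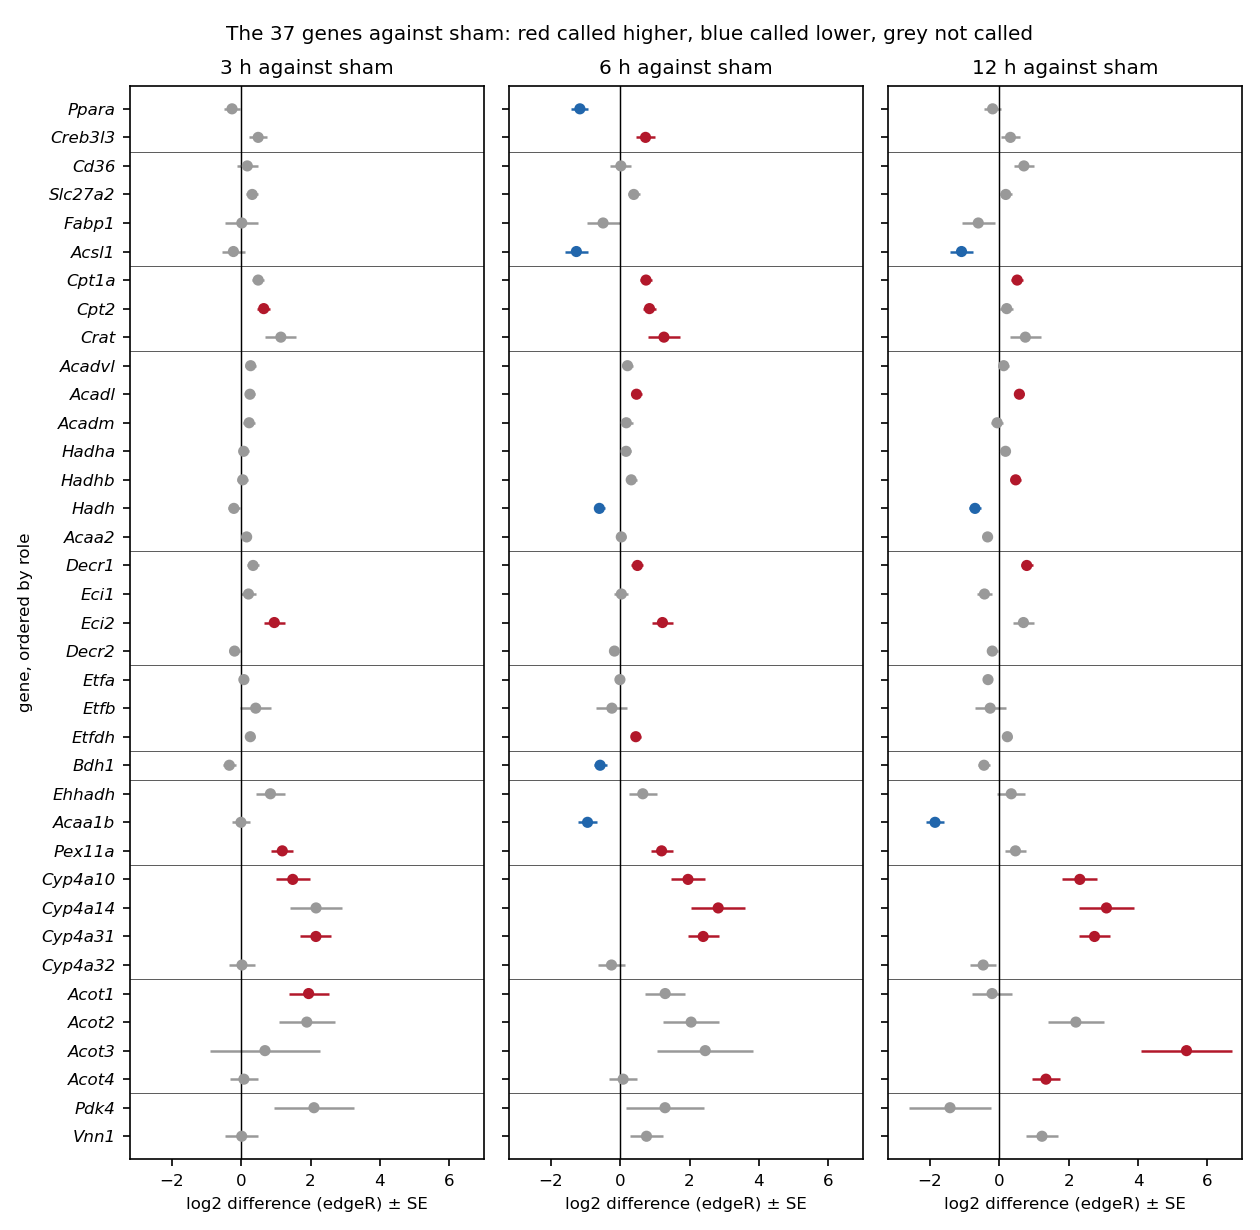
Fitted log2 difference from sham for each of the 37 genes at 3, 6 and 12 h, with the standard error as a bar, in red where called higher, blue where called lower and grey where not called. Acot3 has the widest bar at each time, and most genes of the mitochondrial cycle lie near 0.

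From 3 h to 6 h, 0 rose and 2 fell (Ppara and Acaa1b), beside 4.45% and 4.18% of all tested genes. Acaa1b fell by 0.94 in this step (edgeR adjusted p = 0.0441), a call lost in 7 of 12 fits, those without sham replicate 2, 3 h replicate 1 or 3, any 6 h replicate or 12 h replicate 2 (-0.77 without 3 h replicate 3 to -1.08 without 6 h replicate 1). From 6 h to 12 h, 2 rose (Ppara and Acot4) and 2 fell (Cpt2 and Acaa1b), beside 12.1% and 12.6%. Acot4 rose by 1.26 in this step (edgeR adjusted p = 0.0348), lost without 6 h replicate 2 (1.29), 6 h replicate 3 (0.91) or 12 h replicate 1 (0.77), and Acaa1b fell by 0.91 (edgeR adjusted p = 0.023), lost without 6 h replicate 1 (-0.77), 12 h replicate 2 (-0.86) or 12 h replicate 3 (-0.72). Scaled by library totals, 7 rose and 0 fell from 6 h to 12 h.

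The comparison of 12 h with 3 h was added after the data had been seen, and in it 3 of the 37 rose and 7 fell, beside 17.8% and 18.2% of all tested genes. Acot3, which had to differ, is among the 3, and 2 of the other 36 rose. Under library totals 6 rose and 3 fell, with medians of 0.02 for the 37 and 0.17 over all tested genes. The 3 higher at 12 h were Hadhb (0.43), Acot4 (1.27) and Acot3 (4.71, a description), and the 7 lower were Acaa1b (-1.84), Acot1 (-2.15), Pdk4 (-3.52), Eci1 (-0.64), Acaa2 (-0.49), Hadh (-0.49) and Etfa (-0.40), with edgeR adjusted p from 0.000274 to 0.0442. Only the Acaa1b call held in all 12 fits without 1 library. Pdk4 was -0.24 without 3 h replicate 2, and its call was also lost without 6 h replicate 2 (-3.52), 12 h replicate 2 (-3.18) or 12 h replicate 3 (-3.05), while without 12 h replicate 1 it was -5.04 and called. Acot1 lost its call without 3 h replicate 2 (-1.56) or 12 h replicate 3 (-1.80) and was -2.97 and called without 12 h replicate 1. Acot3 was 2.67 without 12 h replicate 1. Acot4 lost its call without 12 h replicate 1 (0.78), 3 h replicate 1 (1.02) or 3 h replicate 3 (1.33).

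In the same comparison Hadhb lost its call in 9 fits, all but those without sham replicate 1, 3 h replicate 3 or 6 h replicate 3, with 0.28 without 3 h replicate 1 and 0.35 without 12 h replicate 1. Hadh lost its call without 3 h replicates 1 or 3 (-0.49 and -0.37) or 12 h replicates 2 or 3 (-0.48 and -0.41), and Eci1 without the same 4 (-0.67, -0.56, -0.59 and -0.57). Acaa2 (-0.45 and -0.43) and Etfa (-0.34 and -0.35) lost theirs without 3 h replicate 3 or 12 h replicate 3.

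Over the 4 groups at once, 19 of the 37 genes differed (edgeR quasi-likelihood F-test, adjusted p under 0.05), beside 50.0% of all tested genes. The 18 that did not were Acadm, Acadvl, Acot2, Bdh1, Cd36, Crat, Creb3l3, Cyp4a32, Decr2, Eci1, Ehhadh, Etfb, Etfdh, Fabp1, Hadha, Pdk4, Slc27a2 and Vnn1. Of these Bdh1, Crat, Creb3l3 and Etfdh were called against sham at 6 h alone.

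The libraries within a group were not alike for these genes. The highest of the 3 libraries was at least 2-fold above the lowest for 14 of the 37 at 3 h (37.8%), 11 at 6 h (29.7%) and 11 at 12 h (29.7%), beside 12.0%, 12.1% and 12.0% of all tested genes. In sham it was 8 (21.6%, against 23.7% of all tested genes). One library tended to be high or low for many of the genes at once. At 12 h replicate 1 was the highest for 34 of 37 (91.9%), against 28.6% of all tested genes. At 6 h replicate 1 was the highest for 25 (67.6%, against 32.0%) and replicate 3, the library with the 7 h tag, the lowest for 32 (86.5%, against 38.5%) and the highest for 0. At 3 h replicate 1 was the lowest for 28 (75.7%, against 35.0%) and replicate 2 the highest for 19 (51.4%, against 34.1%). The genes are not independent of each other, and these shares are descriptions with no test.

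Other genes of the pathway were counted from lists beside the 37. Of 31 further PPAR alpha targets 27 were tested, and 7 rose and 1 fell at 3 h, 7 rose and 2 fell at 6 h and 6 rose and 3 fell at 12 h. As shares 25.9%, 25.9% and 22.2% of this list rose, beside 9.81%, 16.8% and 13.5% of all tested genes, and 3.70%, 7.41% and 11.1% fell, beside 11.7%, 18.2% and 15.3%. Their median difference was 0.29, 0.38 and 0.12. Plin2, which coats lipid droplets, rose by 2.03 ± 0.41 at 3 h and 2.89 ± 0.42 at 6 h (edgeR adjusted p = 0.00307 and 0.00016), from a mean of 110 FPKM in sham to 466 and 838. At 12 h Plin2 was higher by 1.15 (edgeR adjusted p = 0.0439), a call lost in 9 of 12 fits without 1 library. Cidec, a lipid droplet fusion protein, rose by 2.47 ± 0.60, 3.14 ± 0.61 and 2.47 ± 0.60 at 3, 6 and 12 h (edgeR adjusted p = 0.00999, 0.0013 and 0.00798, with 1.73 at 12 h without 12 h replicate 1). Slc22a5, the carnitine importer, rose by 2.28 ± 0.40 at 3 h (edgeR adjusted p = 0.00122) and 2.18 ± 0.39 at 6 h (edgeR adjusted p = 0.000814). At 12 h Slc22a5 was still higher, by 1.55 (edgeR adjusted p = 0.0094), and this call held in all 12 fits. Among those that fell, Fitm1, of the fat storage-inducing proteins, fell by 1.13 ± 0.32 at 12 h (edgeR adjusted p = 0.0173), a call lost without sham replicate 2 or 3 or 12 h replicate 1 or 3 (-1.43 to -0.94 over all 12 fits).

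Of 33 other enzymes and carriers of fatty acid oxidation 31 were tested, and 2 rose and 3 fell at 3 h, 2 rose and 9 fell at 6 h and 2 rose and 14 fell at 12 h, with medians of -0.04, -0.24 and -0.41. These are 6.45% higher at each time and 9.68%, 29.0% and 45.2% lower. Of all tested genes 9.81%, 16.8% and 13.5% were higher and 11.7%, 18.2% and 15.3% lower. Acsm5, a medium-chain acyl-CoA synthetase, fell at all 3 times, with differences of -0.93 ± 0.12, -1.94 ± 0.12 and -1.21 ± 0.12 (edgeR adjusted p = 0.00015, 2.34e-07 and 1.98e-05). Acox2, the peroxisomal oxidase of branched chains and bile acid precursors, rose by 0.41 ± 0.12 at 3 h (edgeR adjusted p = 0.0273), a call lost without sham replicate 2, 3 h replicate 2 or 3 h replicate 3, under library totals, with no filter and with the replicate block. It then fell by 1.06 ± 0.12 at 12 h (edgeR adjusted p = 5.49e-05). Fabp4, the fatty acid binding protein of adipocytes and macrophages, rose by 1.57 ± 0.36, 2.42 ± 0.37 and 2.33 ± 0.37 (edgeR adjusted p = 0.00743, 0.000214 and 0.000505). At 12 h 8.11% of the 37 and 15.3% of all tested genes fell, and the difference from this list was not tested.

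The libraries that stood out for the 37 also did so in the 27 other PPAR alpha targets, with 12 h replicate 1 the highest for 24 (88.9%), 6 h replicate 3 the lowest for 19 (70.4%) and 3 h replicate 1 the lowest for 21 (77.8%). In 12 genes of fatty acid synthesis, 3 h replicate 1 was instead the highest for 11. The summed level of 6 adipocyte markers differed between libraries too, at 10.4, 14.2 and 2.23 FPKM at 3 h. Its range was 5.71 to 6.09 FPKM in sham and, at 6 and 12 h, 1.52 to 1.99 and 0.813 to 1.51 FPKM. Adipoq, Lep and Plin1 were at 0 at 12 h, and Lep was at 0 in sham and at 6 h too. At 3 h the libraries high in these markers, replicates 1 and 2, were at opposite ends for many of the 37. The part of adipose RNA in the results was not tested.

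**Figure D4:**
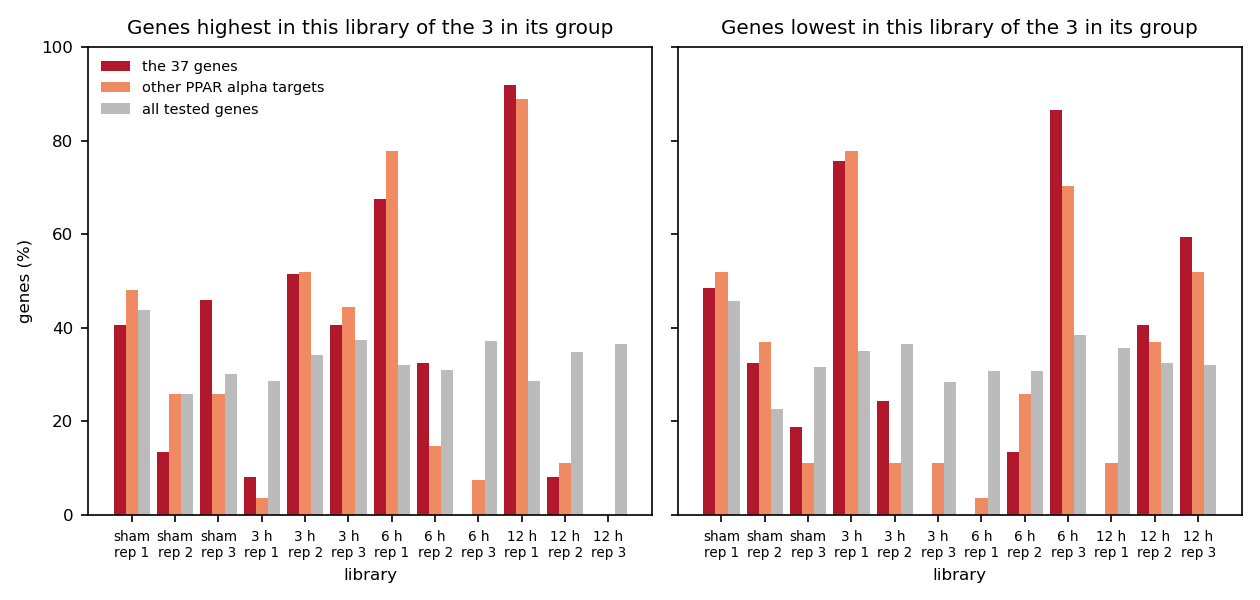
Share in percent of the 37 genes, of 27 other PPAR alpha targets and of all tested genes for which a library was the highest or the lowest of the 3 in its group. The bars for 12 h replicate 1 (highest, 91.9%) and 6 h replicate 3 (lowest, 86.5%) stand farthest from those of all tested genes.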

How the data were processed

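Poly(A) libraries were made from TRIzol-extracted liver RNA with a NEBNext Ultra kit, per the labels' protocols. Reads were handled with HISAT2 2.0.5 and featureCounts 1.5.0-p3 among other tools, on GRCm38, per the submitters' processing notes, which also list DESeq2 (version 1.20.0), fastp and CASAVA 1.8. Their settings and the strand and multi-mapping rules of counting are not given in the sources used here. The deposited table gives raw counts and FPKM per gene and library, per the file headers. The deposited FPKM equal the counts over gene length and an effective library size, 0.854 to 1.15 times the library total, so they carry the authors' scaling.

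The 37 genes and the gene lists were chosen with earlier results of these data known, so no list is independent support. The 11451 genes that reached 1 FPKM in at least 3 libraries were tested with edgeR 4.0.16 (R 4.3.3): quasi-likelihood fit of the counts, TMM scaling, 1 model of the 4 groups, two-sided contrasts, Benjamini-Hochberg adjustment over all tested genes, calls at an adjusted p under 0.05. The biological coefficient of variation was 20.6%. Differences are log2 as fitted, ± SE, and levels are FPKM. The SE was derived as the absolute log2 difference divided by the square root of the quasi-likelihood F statistic. Alternatives were median-ratio scaling, library totals, no filter, DESeq2 1.42.0, limma 3.58.1 on log2(FPKM + 1), a replicate block, each library left out in turn, and sham replicate 1 and 6 h replicate 3, both doubted, left out together. Of other lists at most 4 called genes per comparison were eligible to be named, those with the largest differences and a group mean of 5 FPKM or more. Of 187 listed symbols, 2 had no match in the table. Of the 37, 33 have the same position in GENCODE M21, from whose transcripts the shared 60-base stretches were counted, and 17 overlap another annotated gene. Promoters came from RefSeq. Cell type lists for macrophages, sinusoidal endothelium, stellate cells and cholangiocytes were also summed (reported under other observations).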

Additional observations from a re-analysis of the deposited data

How the results depend on the processing

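Among 4218 recomputed values of the 222 gene and time differences, 3711 kept their sign and side of the threshold, 176 lost a call, 152 gained one and 179 that passed in neither case changed sign; no called difference changed sign. Scaled by library totals, 3 of the 37 genes were higher at 3 h and 6 at 6 h, 7 rose and 0 fell from 6 h to 12 h, and 6 rose and 3 fell from 3 h to 12 h. With DESeq2, 5 were lower at 12 h and 4 fell from 6 h to 12 h, and with limma 0 fell from 3 h to 6 h and 4 from 6 h to 12 h. With no filter on low values, 13 were higher at 3 h and 5 lower at 12 h, 3 rose and 6 fell from 3 h to 6 h, 4 rose and 7 fell from 6 h to 12 h, and 6 rose and 13 fell from 3 h to 12 h. Without sham replicate 1 and 6 h replicate 3 together, 1 was lower at 3 h and 8 at 12 h, 1 fell from 3 h to 6 h, 1 rose and 8 fell from 6 h to 12 h, and 6 rose from 3 h to 12 h. Median-ratio scaling left every count within 1.5 times. Counts over all tested genes are not given for these alternatives, so the counts describe the 37 genes alone. The cause of these shifts was not tested.

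With 1 library left out, genes higher than sham numbered 1 to 9 at 3 h (1 without 3 h replicate 2), 7 to 15 at 6 h (7 without 6 h replicate 1, 15 without 6 h replicate 3) and 4 to 11 at 12 h (4 without 12 h replicate 1), and genes lower 0 to 1, 3 to 6 and 2 to 8 (8 without sham replicate 1). From 3 h to 6 h 0 rose and 0 to 3 fell, from 6 h to 12 h 0 to 4 rose and 0 to 5 fell, and from 3 h to 12 h 0 to 6 rose and 1 to 10 fell. Genes differing among the 4 groups numbered 12 to 24 (24 without sham replicate 1). For these fits, too, counts over all tested genes are not given. Calls that held in all 12 such fits were 1 of 6 at 3 h, 9 of 17 at 6 h, 6 of 12 at 12 h and 1 of 10 between 3 h and 12 h, and 0 of the 2 and 4 calls of the shorter steps.

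The replicate numbers do not pair the libraries: 4 of 18 same-numbered pairs correlated above 0.1 in their deviations from the group means (r from -0.255 to 0.173), and 3 of 12 libraries correlated best with their own number. With the replicate number as a block, 10 calls were lost and 5 gained, 8 of the 37 genes were higher at 6 h and 1 fell from 3 h to 6 h. The 3 libraries per group and the spread between them limit what can be called, and Acot3 rests on few counts outside 12 h replicate 1.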

Other observations

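The receptor's partners and coregulators moved in both directions. Of 24 tested, 5 rose and 1 fell at 3 h, 4 rose and 7 fell at 6 h, and 0 rose and 2 fell at 12 h, beside 9.81% and 11.7%, 16.8% and 18.2%, and 13.5% and 15.3% of all tested genes. Lpin1, a phosphatidate phosphatase that also coactivates PPAR alpha, rose from a mean of 6.90 FPKM in sham to 42.9 at 3 h (2.58 ± 0.52, edgeR adjusted p = 0.00333, 1.73 and still called without 3 h replicate 3) and 36.98 at 6 h (2.39 ± 0.52, edgeR adjusted p = 0.00292). Pprc1, of the PGC-1 family, rose by 1.53 ± 0.35 at 3 h and 1.68 ± 0.35 at 6 h (edgeR adjusted p = 0.00685 and 0.00214). Hnf4a, a nuclear receptor of hepatocyte identity, rose by 1.07 ± 0.15 at 3 h (edgeR adjusted p = 0.000257). Sirt3, the mitochondrial deacetylase, fell by 0.72 ± 0.16 at 12 h (edgeR adjusted p = 0.00506).

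Genes of fatty acid synthesis, the opposing pathway, fell mostly at 6 and 12 h. Of its 12 genes 2 rose and 2 fell at 3 h, 1 rose and 5 fell at 6 h, and 0 rose and 9 fell at 12 h, with medians of 0.10, -0.95 and -1.47. As shares 16.7%, 8.33% and 0% rose and 16.7%, 41.7% and 75.0% fell, beside the same shares of all tested genes as above. Thrsp, a lipogenic regulator, rose by 1.43 ± 0.37 at 3 h (edgeR adjusted p = 0.0136, 0.96 and not called without 3 h replicate 1) and fell by 2.40 ± 0.38 at 12 h (edgeR adjusted p = 0.000556). Elovl5, a fatty acid elongase, rose by 0.77 ± 0.20 at 3 h (edgeR adjusted p = 0.0124, not called without sham replicate 2). Srebf1, its main transcription factor, fell at all 3 times (-1.74 ± 0.23, -2.81 ± 0.24 and -2.73 ± 0.23, edgeR adjusted p = 0.000148, 2.09e-06 and 5.5e-06). Fasn, fatty acid synthase, fell by 1.52 ± 0.31 at 6 h and 1.99 ± 0.31 at 12 h (edgeR adjusted p = 0.00172 and 0.000488). Of 7 other ketone body genes 2 rose and 0 fell at 3 h, 2 rose and 1 fell at 6 h and 0 rose and 1 fell at 12 h. As shares 28.6%, 28.6% and 0% rose, beside 9.81%, 16.8% and 13.5% of all tested genes. The shares that fell were 0%, 14.3% and 14.3%, beside 11.7%, 18.2% and 15.3%. The risers were the monocarboxylate carriers Slc16a1 (1.48 ± 0.21 at 3 h and 2.08 ± 0.21 at 6 h) and Slc16a6 (1.72 ± 0.34 and 1.99 ± 0.34), with edgeR adjusted p from 8.61e-06 to 0.00257. Of 15 peroxisome biogenesis genes, 0 changed at 3 h, 3 rose and 3 fell at 6 h and 2 rose and 3 fell at 12 h, with Pex7, a receptor for peroxisomal import, lower at both (-0.67 ± 0.13 and -0.84 ± 0.13, edgeR adjusted p = 0.00148 and 0.000505).

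Summed marker levels of the other liver cell types were lowest at 12 h or in sham. In sham and at 3, 6 and 12 h, macrophage markers lay at 127 to 171, 169 to 202, 115 to 139 and 83.2 to 109 FPKM. Sinusoidal endothelial markers lay at 35.8 to 40.9, 50.5 to 66.1, 38.5 to 44.2 and 27.8 to 35.1 FPKM, stellate cell markers at 48.7 to 64.3, 86.0 to 111, 66.7 to 71.1 and 48.5 to 58.8, and cholangiocyte markers at 18.5 to 21.2, 28.4 to 38.9, 30.4 to 38.3 and 22.6 to 30.4. Their part in the differences of the 37 genes was not tested.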
